A study of Homo sapiens with 6 samples.

Results

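The solute carrier (SLC) genes expressed in SC1 cells were followed after bryostatin. A gene was counted when its symbol began with SLC, a family number and the letter A, and when its mean over the 6 deposited expected counts was at least 10. Of the 15802 genes in the table, 278 had such a symbol and 180 reached that mean. The 180 members fell into 43 families, and 5 of them (SLC2A4RG, SLC4A1AP, SLC7A6OS, SLC9A3R1 and SLC9A3R2) are proteins named after a carrier and not carriers themselves, which leaves 175 carriers. Because the mean was taken over both groups together, it used expression level and not the difference between groups. In 5 members the mean count of 1 group was nonetheless under 10. Just inside the limit lay SLC22A18 with a mean of 10.3 counts and SLC15A1 with 10.7, and just outside it lay SLC26A11 with 9.83 and SLC45A3 with 9.17. The symbol pattern leaves out the other lettered branches of SLC35, the SLCO genes and transporters known by other names, such as the mitochondrial pyruvate carrier.

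SC1 is a cultured human line that the labels call a B cell lymphoma. The treated libraries came from SC1 cells given bryostatin at 1 nM, and the control libraries from SC1 cells given DMSO, the vehicle. There were 3 libraries in each group (bryostatin 1 to 3 and DMSO 1 to 3), all from this single line, with no genetic change given. No source used here gives the length of the treatment. Because the labels are silent on whether replicates came from separate cultures, every p-value reflects only how these samples spread, and that spread may be technical.

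Solute carriers are membrane proteins that move nutrients, ions, vitamins and metabolites across the cell surface and the membranes of organelles. SLC16 proteins of the monocarboxylate group carry lactate and pyruvate together with protons, and the SLC7 light chains carry amino acids, several of them only when joined to the SLC3A2 heavy chain. SLC25 proteins sit mostly in the inner mitochondrial membrane and exchange nucleotides, phosphate, keto acids and cofactors between the matrix and the cytosol. Bryostatin is a marine macrolide that occupies the diacylglycerol site of protein kinase C, an enzyme that takes part in B-cell receptor signalling.

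Depth lay between 18162161 and 18915394 expected counts per library. Levels between libraries are given as CPM, which are counts per 1000000 of the scaled library size, and levels between genes as the authors' TPM, which allow for transcript length. The B-lineage markers summed to 3480 to 3610 CPM with bryostatin and 2380 to 2500 with DMSO, and all 8 of 8 were in the table. Of 8 T and NK markers 5 were in the table, summing to at most 0.269 CPM in any library. The 6 of 8 myeloid markers in the table summed to 12.0 to 23.7 CPM with bryostatin and 18.1 to 29.2 with DMSO, mostly S100A8 and S100A9, with CD14, LYZ, CSF1R and ITGAM under 0.5 CPM in every library. All 8 epithelial, stromal and endothelial markers were in the table, at 3.89 to 6.27 CPM with bryostatin and 4.86 to 6.70 with DMSO. Bryostatin 1 stood apart from its group. Its chi-square per gene against bryostatin 2 and 3 was 40.8 and 37.4, where the other pairs within a group gave 2.73 to 4.37. Results that rest on it are given with and without it.

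Across all 180 members the summed TPM was 6630 ± 261 (SD, n = 3) with bryostatin and 6860 ± 134 (SD, n = 3) with DMSO. The mitochondrial carriers held 49.2% of the members' mean TPM, SLC7 and SLC3 together 10.6%, and SLC16 2.48%. The most abundant members by mean TPM over the 6 libraries were SLC25A6 at 1240 and SLC25A5 at 1020, both adenine nucleotide translocators. Next came SLC7A5 at 319, SLC3A2 at 259 and the glutamine carrier SLC1A5 at 249. In all, 12 members had a mean of at least 100 TPM and 29 were under 1 TPM.

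Few solute carrier transcripts differed between the groups beyond the spread of the libraries, and those that did were spread over 7 families. The edgeR quasi-likelihood test, adjusted over all genes by Benjamini-Hochberg with a threshold of 0.05, was possible for 179 members. It called 8 of them, 5 higher and 3 lower with bryostatin, while 171 did not pass. These 8 are 4.47% of the members tested, and over all 11613 genes tested the share called was 4.56%, with 3.72% higher and 0.835% lower. The share among solute carriers was thus near that of the whole table. The median log2 fold change (bryostatin over DMSO) was -0.01 over the members and -0.00 over all genes tested. At an unadjusted p under 0.05 stood 39 members (21 higher and 18 lower), and 18.7% of all genes did so. In 50 members (27.9%) the CPM of the groups did not overlap, against 27.8% of all genes. In these bulk libraries, fewer cells of a type and less RNA per cell cannot be told apart. SLC39A2, a zinc importer with few counts, was not tested, and its CPM were 0.229, 0.485 and 0.770 with bryostatin and 1.19, 0.538 and 0.476 with DMSO.

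**Figure D1:**
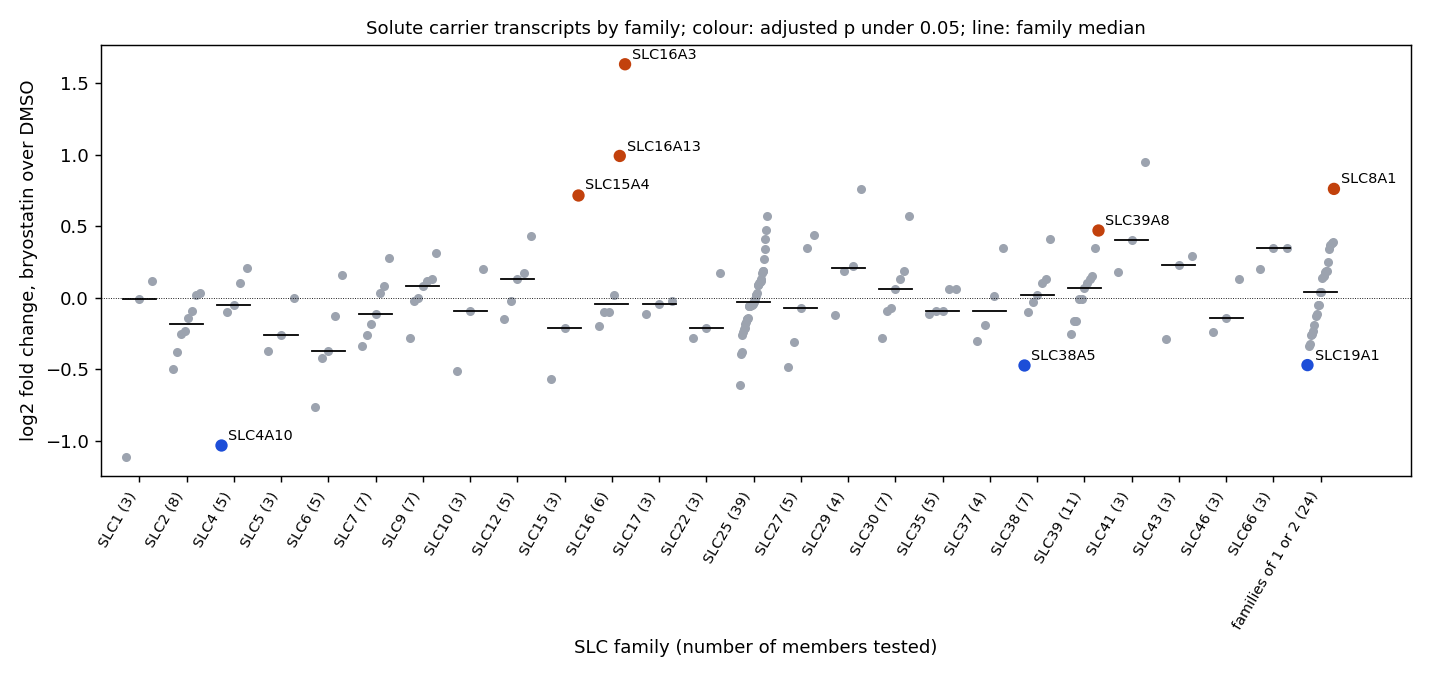
Log2 fold change of each tested member, bryostatin over DMSO (vertical axis), by SLC family with the number of members tested in brackets (horizontal axis); black lines are family medians and coloured, named points passed the adjusted p of 0.05. The 8 coloured points lie in different parts of the range, from SLC4A10 at -1.03 to SLC16A3 at 1.63, and no SLC7 or SLC25 point is coloured.

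Among the members that rose, SLC15A4 had the smallest p. This proton-coupled carrier of histidine and short peptides sits in the lysosomal membrane and takes part in Toll-like receptor signalling in B cells and dendritic cells. Its gene lies on chromosome 12 from 128793194 to 128823958 (GRCh38.p14). SLC15A4 stood at 23.4, 24.4 and 25.3 CPM in bryostatin 1, 2 and 3 and at 15.4, 13.9 and 15.2 CPM in DMSO 1, 2 and 3. Every bryostatin library was above every DMSO library, and the spread within each group was small against the gap. The mean rose 1.64-fold (0.72 ± 0.09 on the log2 scale, estimate ± SE, edgeR adjusted p = 0.00470). It passed the threshold under each of the 17 alternative settings tried. The other SLC15 members tested were low, SLC15A1 at a mean of 0.302 TPM and SLC15A2 at 0.247 TPM.

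Only called members with a single window were considered for printing. Of these, SLC15A4 had the smallest p among members, and SLC38A5 was the one whose window held a searched motif. The 250 bases before the start of SLC15A4 and those of SLC38A5 are shown. They come from the RefSeq table of GRCh38.p14, on the minus strand, read 5′ to 3′. SLC15A4 covers chr12:128823959-128824208 and SLC38A5 covers chrX:48470261-48470510, and capitals mark the E-box CACGTG.
SLC15A4: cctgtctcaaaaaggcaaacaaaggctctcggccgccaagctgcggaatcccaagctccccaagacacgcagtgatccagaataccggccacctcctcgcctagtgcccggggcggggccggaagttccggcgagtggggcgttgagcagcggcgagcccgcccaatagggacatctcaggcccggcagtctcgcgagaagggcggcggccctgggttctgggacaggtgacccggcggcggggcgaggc
SLC38A5: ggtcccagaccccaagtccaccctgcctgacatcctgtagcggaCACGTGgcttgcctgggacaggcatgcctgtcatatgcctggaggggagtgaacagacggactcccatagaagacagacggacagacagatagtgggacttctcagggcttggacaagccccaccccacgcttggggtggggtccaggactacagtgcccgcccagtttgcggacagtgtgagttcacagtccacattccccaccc
The E-box begins 206 bases before the start of SLC38A5 (offset -206), and the SLC15A4 window held none of the motifs searched on both strands. These were AP-1 (TGANTCA), E-box (CACGTG) and the NF-kB consensus. Windows of this kind were found for 149 member genes, 224 windows in all. AP-1 letters were in 5.36% of member windows and 6.57% of all 35116 windows, NF-kB letters in 5.80% and 5.21%, and E-box letters in 11.6% and 6.34%. Of the 18 windows of 7 called genes, AP-1 letters were in 0, NF-kB letters in 1 (SLC19A1) and E-box letters in 2 (SLC39A8 and SLC38A5). Windows of 1 gene overlap or share a start region, so these shares are descriptions only.

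The metal carriers SLC39A8 and SLC8A1 also rose. SLC39A8 imports zinc and manganese and lies on chromosome 4 from 102251041 to 102345482. Its CPM were 144, 140 and 132 with bryostatin and 96.0, 103 and 101 with DMSO, with no overlap. The log2 fold change was 0.47 ± 0.07 (1.39-fold, edgeR adjusted p = 0.00795). Leaving out DMSO 1, DMSO 2 or DMSO 3 gave an adjusted p of 0.0783, 0.0541 and 0.0647, so that each of these ended the call. SLC39A8 was also the most abundant of the 12 SLC39 members, at 66.4 TPM. None of the 10 other SLC39 members tested passed, and the manganese, zinc and iron importer SLC39A14 stood at -0.25 on the log2 scale (adjusted p = 0.196).

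SLC8A1, the sodium-calcium exchanger of the plasma membrane, lies on chromosome 2 from 40097270 to 40512435. Its CPM were 7.37, 9.59 and 9.29 with bryostatin and 4.72, 5.06 and 5.71 with DMSO. The groups did not overlap, and bryostatin 1 was the lowest of the treated libraries. The log2 fold change was 0.76 ± 0.16 (edgeR adjusted p = 0.0321). The call held under 8 of 17 alternatives, and it was lost when bryostatin 2 (0.109), bryostatin 3 (0.120), DMSO 1 (0.169), DMSO 2 (0.165) or DMSO 3 (0.111) was left out. It was also lost on the TPM scale (0.253 with a pseudocount of 0.1) and when libraries were scaled by their totals alone (0.0537). Taking the replicate number as a block ended the call too (0.0644). Without bryostatin 1 its adjusted p was 9.70e-05.

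**Figure D2:**
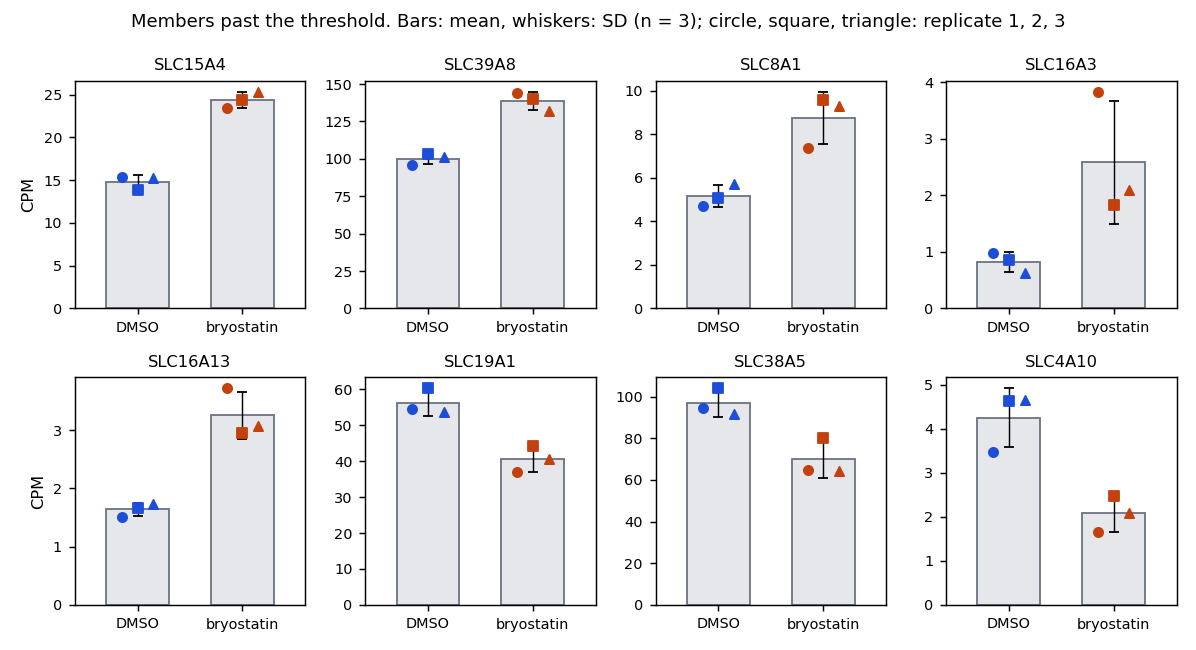
CPM (vertical axis, starting at 0) in each library of the 8 members that passed the threshold; bars are group means, whiskers SD over 3 libraries, and circles, squares and triangles are replicates 1, 2 and 3. The groups do not overlap in any of the 8 panels, and SLC16A3 has the widest treated spread, from 1.83 to 3.83 CPM.

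In the SLC16 family, 2 of 6 members rose and 0 fell (33.3%, against 4.56% of all genes). SLC16A3 encodes MCT4, a lactate exporter of glycolytic cells, on chromosome 17 from 82217934 to 82240086. Its CPM were 3.83, 1.83 and 2.09 with bryostatin and 0.986, 0.861 and 0.634 with DMSO. All treated libraries were above all controls, with bryostatin 1 well above the other treated libraries. The mean rose 3.10-fold (1.63 ± 0.36 on the log2 scale, edgeR adjusted p = 0.0439), from a low level of 1.22 TPM over all libraries. Without bryostatin 1 the log2 fold change was 1.24 (adjusted p = 0.00634). The call was lost without bryostatin 3 (0.0828), DMSO 1 (0.141), DMSO 2 (0.182) or DMSO 3 (0.211), and with limma-voom (0.0573).

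SLC16A13, a less studied member of the monocarboxylate family, lies on the same chromosome from 7036015 to 7040117. Its CPM were 3.72, 2.96 and 3.08 with bryostatin and 1.51, 1.67 and 1.74 with DMSO, again without overlap. The log2 fold change was 0.99 ± 0.20, a rise of 1.98-fold (edgeR adjusted p = 0.0309). The call was lost, at adjusted p values of 0.0717 and 0.0924, when bryostatin 2 or 3 was dropped. It was lost at 0.164, 0.144 and 0.144 when DMSO 1, 2 or 3 was dropped. Taking the replicate number as a block ended it too (0.115).

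The main lactate and pyruvate carrier by level was SLC16A1 (MCT1), at 154 TPM. SLC16A1 stood at 325, 380 and 341 CPM with bryostatin and 368, 375 and 376 CPM with DMSO, so the groups overlapped, and the log2 fold change was -0.10 ± 0.07 (edgeR adjusted p = 0.514). The TPM of SLC16A3 was 2.10, 0.835 and 1.03% of that of SLC16A1 with bryostatin and 0.494, 0.366 and 0.309% with DMSO. These ratios did not overlap, and the exact permutation test gave p = 0.1, the smallest it can give for 3 against 3. The other members did not pass. The log2 fold changes were 0.02 for SLC16A7 (MCT2), -0.10 for SLC16A10, an aromatic amino acid carrier, and -0.20 for SLC16A6.

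Genes that act beside the lactate carriers were given by a list of 14, of which 1 rose and 0 fell (7.14%, against 4.56% of all genes). The pyruvate dehydrogenase kinase PDK1 rose, at 38.9, 42.6 and 44.1 CPM with bryostatin and 31.3, 28.7 and 29.7 with DMSO (log2 fold change 0.48, edgeR adjusted p = 0.0202). Its call held under 9 of 17 alternatives. It was lost on the TPM scale (0.146 with a pseudocount of 0.1) and with the replicate number as a block (0.0705). Leaving out bryostatin 2 (0.0739), bryostatin 3 (0.0949), DMSO 1 (0.0986), DMSO 2 (0.133) or DMSO 3 (0.133) also ended it. The lactate dehydrogenase genes LDHA and LDHB had log2 fold changes of 0.02 and -0.02. BSG, the chaperone that brings MCT1 and MCT4 to the cell surface, had -0.08 (adjusted p = 0.613). The mitochondrial pyruvate carrier subunits MPC1 and MPC2 had -0.01 and 0.10. LDHA, LDHB, BSG, MPC1 and MPC2 were chosen after their values were seen, as partners of the carriers above.

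None of the 8 members of SLC7 and SLC3 passed the edgeR test. At an unadjusted p under 0.05 there were 2 of the 8, where 18.7% of all genes stood. DESeq2 called 1 member and limma-voom 0. The pair with the lowest p values was SLC7A5 and SLC3A2, the light and heavy chains of the large neutral amino acid transporter LAT1, whose heavy chain is also known as CD98. SLC7A5 stood at 823, 855 and 799 CPM with bryostatin and 949, 1050 and 967 with DMSO, without overlap, and its log2 fold change was -0.26 ± 0.07 (edgeR adjusted p = 0.0752). SLC3A2 stood at 288, 311 and 273 CPM with bryostatin and 336, 372 and 327 with DMSO, also without overlap, at -0.25 ± 0.08 (adjusted p = 0.128). Both were lower in all 3 bryostatin libraries than in any DMSO library. Without bryostatin 1 the adjusted p was 3.74e-04 for SLC7A5 and 0.0265 for SLC3A2, with log2 fold changes of -0.26 and -0.24. The TPM of SLC7A5 was 124% of that of SLC3A2 with bryostatin and 123% with DMSO (exact permutation p = 1).

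The cystine-glutamate exchanger light chain SLC7A11 stood at 12.1, 11.3 and 9.62 CPM with bryostatin and 11.5, 15.7 and 14.5 with DMSO, and the groups overlapped. Its log2 fold change was -0.34 ± 0.15 (edgeR adjusted p = 0.269), and -0.41 without bryostatin 1 (adjusted p = 0.0237). SLC7A1, a cationic amino acid carrier, depended on 1 library. It stood at 292, 473 and 432 CPM with bryostatin and 450, 467 and 439 with DMSO. Bryostatin 1 was far below the other 5 libraries, which lay close together, and without it the log2 fold change went from -0.18 to -0.00. SLC7A6, another SLC3A2 partner, showed the same arrangement (61.0, 93.2 and 82.1 against 85.5, 87.2 and 81.9 CPM), from -0.11 to 0.05. On the log2 scale SLC7A3, a cationic carrier, stood at 0.28 (adjusted p = 0.470), SLC7A7 0.08 (0.950) and SLC7A6OS 0.03 (0.894).

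**Figure D3:**
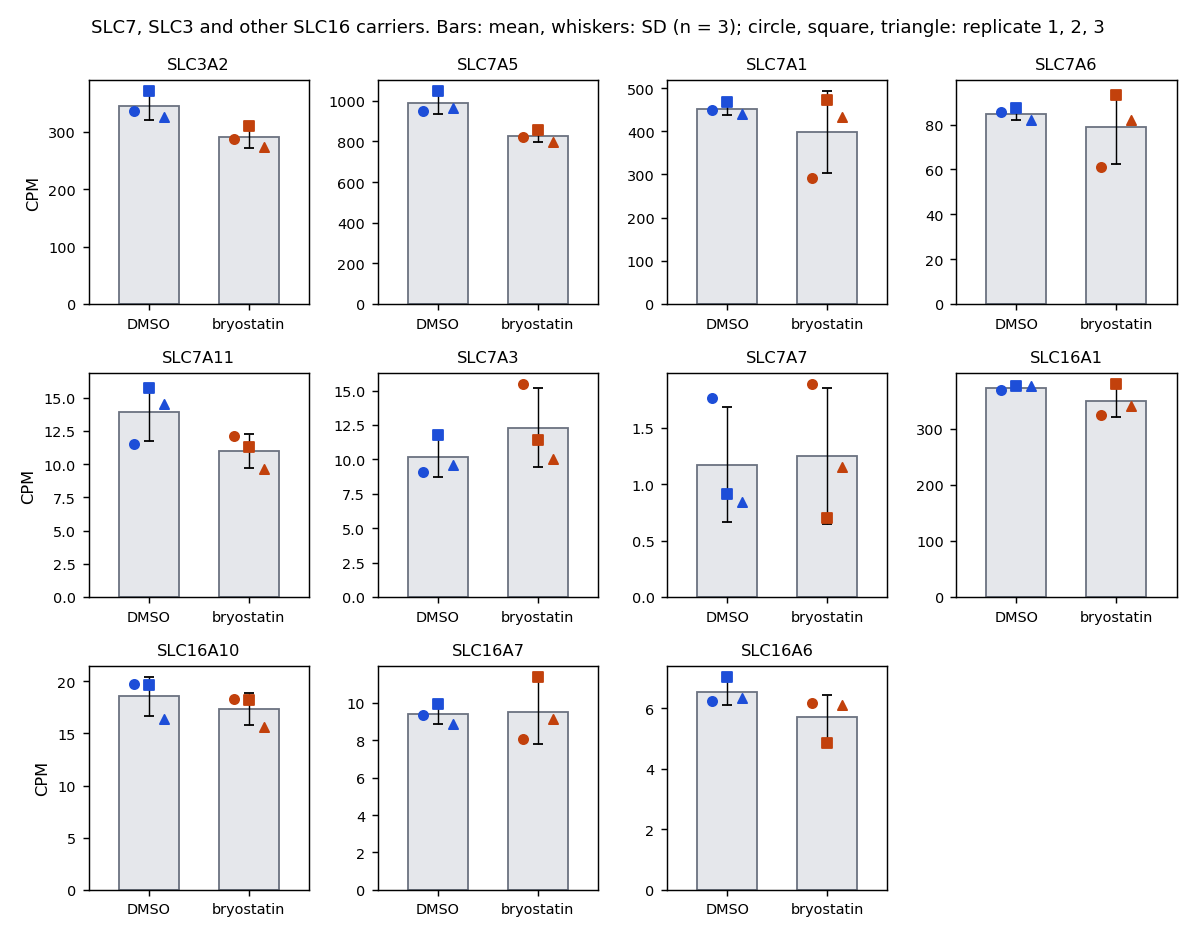
CPM (vertical axis, starting at 0) in each library of the SLC3 and SLC7 carriers and of the SLC16 carriers that did not pass; bars are group means, whiskers SD over 3 libraries, and circles, squares and triangles are replicates 1, 2 and 3. SLC7A5 and SLC3A2 show separate groups, while in SLC7A1 and SLC7A6 the circle of bryostatin 1 lies alone, at 292 and 61.0 CPM.

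Of 23 tested genes of the amino acid response, 1 rose and 0 fell, a share of 4.35% that is near the 4.56% of all genes. DDIT4, an inhibitor of mTORC1, rose (log2 fold change 0.41, edgeR adjusted p = 0.0274), with 53.0, 56.3 and 56.4 CPM against 43.5, 41.5 and 39.4 CPM. The leucine sensor SESN2 was at 58.4, 42.8 and 38.8 CPM with bryostatin and 29.9, 30.3 and 29.3 with DMSO (log2 fold change 0.64, adjusted p = 0.0520), and ATF4, the main transcription factor of this response, had 0.06 (0.728). Of 28 genes of amino acid sensing at the lysosome, 1 rose, the GATOR2 subunit MIOS (log2 fold change 0.52, adjusted p = 0.0109), and 0 fell, a share of 3.57%. The call of DDIT4 held under 8 of 17 alternatives and that of MIOS under 12. Both were lost on the TPM scale (0.148 and 0.266 with a pseudocount of 0.1) and without DMSO 1 (0.118 and 0.0981), DMSO 2 (0.151 and 0.0798) or DMSO 3 (0.170 and 0.0791). DDIT4 was also lost without bryostatin 2 (0.0902) or bryostatin 3 (0.114) and with the replicate number as a block (0.0943). Scaling libraries by their totals alone ended its call too (0.0514). ATF4 was chosen after its values were seen.

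The mitochondrial carriers were the largest family, with 39 members, and none passed the edgeR test in either direction. At an unadjusted p under 0.05 there were 8 of 39 (2 higher and 6 lower), where 18.7% of all genes stood. Of the 11613 genes tested, 1338 were higher and 838 lower at that p. DESeq2 and limma-voom called 0 SLC25 members. Their median log2 fold change was -0.03. In 11 (28.2%) the groups did not overlap, 4 higher and 7 lower, which is near the 27.8% of all genes. The most abundant, SLC25A6, stood at 1370, 992 and 979 CPM with bryostatin and 876, 958 and 813 with DMSO. Every treated library was above every control, and the log2 difference was 0.34 ± 0.14 (edgeR adjusted p = 0.230). Bryostatin 1 was the highest by far, and without it the log2 difference was 0.16 (adjusted p = 0.0598). Its relative SLC25A5 stood at 890, 683 and 665 CPM with bryostatin and 689, 724 and 668 with DMSO (log2 fold change 0.11), and without bryostatin 1 this became -0.04. SLC25A4, SLC25A5 and SLC25A6 are close copies of each other, and reads that match several of them were shared out by estimation, so their separate levels are uncertain.

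Bryostatin 1 differed from the other treated libraries in this family too. The median deviation of the 39 SLC25 transcripts from the DMSO mean, in log2 CPM, was 0.12 in bryostatin 1, -0.02 in bryostatin 2 and -0.10 in bryostatin 3. The phosphate carrier SLC25A3 shows this. It stood at 712, 552 and 555 CPM with bryostatin and 589, 612 and 588 with DMSO, so that bryostatin 1 was above all controls and bryostatin 2 and 3 below them. The same was seen in SLC25A39, which imports glutathione, at 150, 120 and 115 CPM against 130, 139 and 131. In 7 SLC25 members (17.9%) bryostatin 1 lay on the opposite side of all DMSO libraries from bryostatin 2 and 3, and the share was 16.2% over all genes tested.

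**Figure D4:**
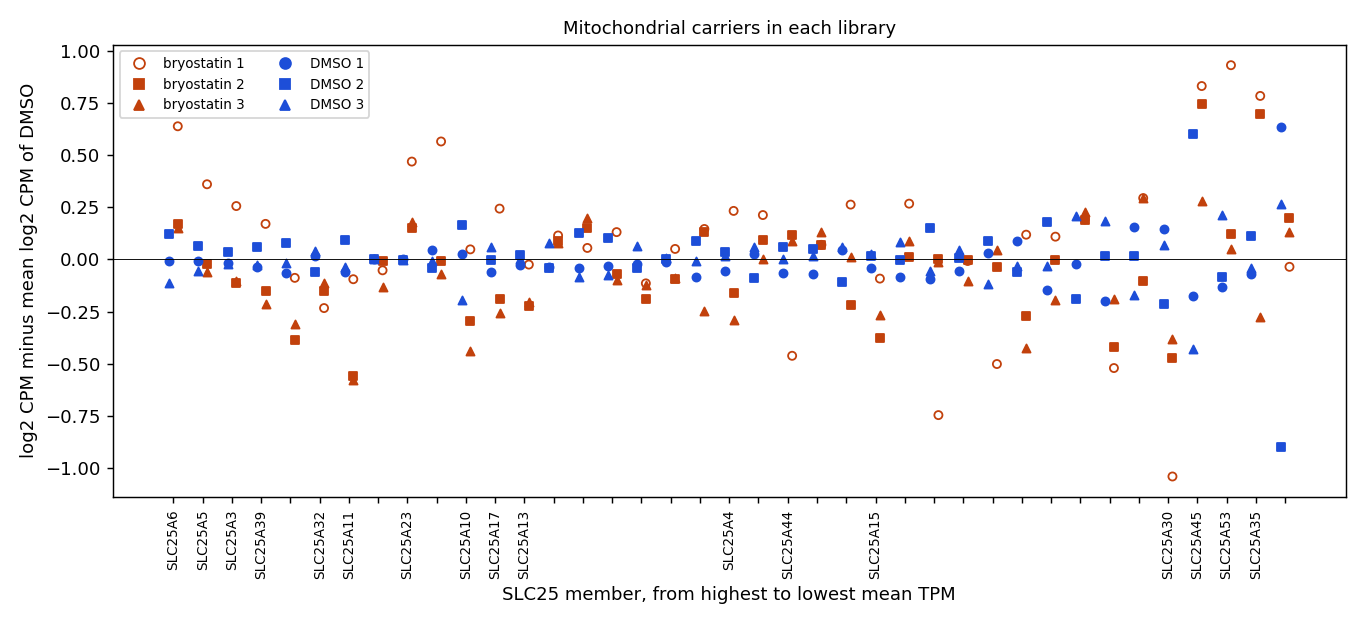
Log2 CPM of each SLC25 member minus its mean log2 CPM in DMSO (vertical axis), ordered from the highest to the lowest mean TPM (horizontal axis, labelled for members described in the text); orange points are bryostatin libraries and blue points DMSO libraries, with bryostatin 1 as open circles. The open circles lie above the other orange points in many members, for example in SLC25A6 and SLC25A3, and below them in SLC25A44.

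Without bryostatin 1 the edgeR test called 10 SLC25 members, 1 higher and 9 lower. These are 25.6% of the family, near the 27.0% of all genes called without that library, so the count is no result about the family and its members are given as a description. The higher one was SLC25A23, a calcium-dependent ATP-Mg and phosphate carrier (log2 fold change 0.16, adjusted p = 0.0178). The oxoglutarate carrier SLC25A11 was the lowest in p (log2 fold change -0.57, adjusted p = 1.20e-06), with 55.7, 40.4 and 39.8 CPM in bryostatin 1, 2 and 3 and 57.1, 63.5 and 58.0 with DMSO. With all libraries SLC25A11 had -0.39 ± 0.14 (adjusted p = 0.166). Also lower were SLC25A3, SLC25A4, SLC25A10 (dicarboxylates), SLC25A13 (aspartate and glutamate), SLC25A15 (ornithine), SLC25A17 and SLC25A39. SLC25A11, SLC25A23 and these genes other than SLC25A3 and SLC25A39 were chosen after their values were seen.

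The remaining SLC25 members that met the naming rule did not pass. SLC25A32, a carrier of folate and FAD, stood at -0.17 on the log2 scale (edgeR adjusted p = 0.253). SLC25A30 had -0.61 (0.170) at 2.47 TPM. SLC25A45, SLC25A35 and SLC25A53, all at 1.04 TPM or less, had 0.57, 0.47 and 0.41 and did not pass.

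Of 16 genes for carrier import and outer membrane pores, 1 fell and 0 rose with all libraries. This is 6.25%, where 4.56% of all genes were called and 0.835% were lower. TOMM40, the channel through which carriers enter the mitochondrion, fell (log2 fold change -0.36, edgeR adjusted p = 0.0130), from 383, 406 and 377 CPM with DMSO to 299, 308 and 302 with bryostatin. The log2 fold change was below 0 in 14 of the 16, with a median of -0.16. Over all genes tested the log2 fold change was below 0 in 5835 of 11613. Without bryostatin 1, 12 of the 16 (75.0%) were called, all lower, where 13.2% of all genes were lower. Bryostatin 1 itself was above every DMSO library in 4 of the 16 and below every one in 8. The list was chosen with earlier results of these data known, and the count depends on leaving that library out. It is therefore given as a description only. The call of TOMM40 was lost without bryostatin 3 (0.0561), DMSO 1 (0.0925), DMSO 2 (0.0998) or DMSO 3 (0.0743). Transporters under other symbols were given as a further list, of which 1 of 18 tested rose and 0 fell. This share of 5.56% is near the 4.56% of all genes. The 1 that rose was the lysophosphatidylcholine carrier MFSD2A (log2 fold change 0.50, edgeR adjusted p = 0.0373). The call of MFSD2A held under 8 of 17 alternatives and was lost on the TPM scale (0.161 with a pseudocount of 0.1). It was also lost without bryostatin 2 (0.114), bryostatin 3 (0.130), DMSO 1 (0.209), DMSO 2 (0.134) or DMSO 3 (0.164). Taking the replicate number as a block (0.0927) or scaling libraries by their totals alone (0.0578) ended it too.

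The members that fell came from SLC19, SLC38 and SLC4. SLC19A1, the reduced folate carrier, lies on chromosome 21 from 45502517 to 45563025. Its CPM were 36.9, 44.1 and 40.7 with bryostatin and 54.5, 60.3 and 53.8 with DMSO, and all treated libraries were below all controls. It was 1.39-fold lower, at -0.47 ± 0.10 on the log2 scale (edgeR adjusted p = 0.0323). The call was lost without bryostatin 3 (0.0992), DMSO 1 (0.143), DMSO 2 (0.180) or DMSO 3 (0.133). It was also lost on the TPM scale (0.0547 with a pseudocount of 0.1) and with the replicate number as a block (0.0564). The thiamine carrier SLC19A2 had 0.19 (0.544), and the proton-coupled folate carrier SLC46A1 had -0.14 (0.781), with 5.54 CPM in bryostatin 1 as its lowest library.

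SLC38A5, which carries glutamine, histidine and serine, lies on the X chromosome from 48458544 to 48470260. Its CPM were 64.9, 80.1 and 64.4 with bryostatin and 94.5, 104 and 91.7 with DMSO, without overlap. The log2 fold change was -0.47 ± 0.11 (edgeR adjusted p = 0.0457). The adjusted p rose to 0.138 when bryostatin 3 was dropped and to 0.173, 0.218 and 0.151 when DMSO 1, 2 and 3 were dropped in turn, and it was 0.0582 on the TPM scale with a pseudocount of 0.1. Its relatives went other ways in value. SLC38A2, a sodium-coupled carrier of small neutral amino acids, had 0.41 ± 0.12 (adjusted p = 0.104), and SLC38A1, a glutamine carrier and the most abundant of the family at 141 TPM, had -0.03 (0.926). Without bryostatin 1, at 544 CPM the lowest of its 6 libraries, SLC38A1 had 0.11 (0.0631). SLC38A2 was chosen after its values were seen.

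SLC4A10, a sodium-coupled bicarbonate carrier known mainly from neurons, lies on chromosome 2 from 161624416 to 161985270. Its CPM were 1.66, 2.48 and 2.09 with bryostatin and 3.48, 4.63 and 4.65 with DMSO, so it was low in both groups and lower with bryostatin in every library. It was 2.04-fold lower, with -1.03 ± 0.22 on the log2 scale (edgeR adjusted p = 0.0398). The call was lost when bryostatin 2 (0.0610), bryostatin 3 (0.119), DMSO 1 (0.0789), DMSO 2 (0.186) or DMSO 3 (0.199) was left out. It was also lost on the TPM scale (0.0714 with a pseudocount of 0.1) and with the replicate number as a block (0.0668). SLC4A2, the anion exchanger that was the most abundant SLC4 member at 34.1 TPM, had -0.10 (0.556).

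With all libraries, among families with 3 or more members tested, all log2 fold changes were above 0 in SLC41 and SLC66. They were below 0 in SLC5 and SLC17, and none of these families held a call. All 3 members of SLC41, magnesium carriers, were above 0 with a median of 0.40. SLC41A3 had 0.40 ± 0.11, at 14.3, 14.9 and 15.3 CPM with bryostatin and 11.4, 12.1 and 10.3 with DMSO, without overlap (edgeR adjusted p = 0.0832). The 3 SLC66 members were also all above 0, and SLC66A2 had 0.35 ± 0.08 (0.0520), at 39.3, 38.3 and 36.8 CPM against 30.2, 30.7 and 29.2. Its groups were separate. SLC66A1, which exports cationic amino acids from the lysosome, had 0.35 (adjusted p = 0.2). In SLC5 the median was -0.26 and in SLC17 -0.04. SLC5A3 stood at -0.00 ± 0.19, and without bryostatin 1 it had 0.20 (edgeR adjusted p = 0.0222). Without that library SLC17A7 and SLC17A9 had 0.10 and 0.01. The shared sign in SLC5 and in SLC17 thus rested on bryostatin 1. In SLC43 all 3 members had separate groups, with mixed signs, where 27.8% of all genes had separate groups. The neutral amino acid carrier SLC43A1 had 0.29 (0.139), SLC43A2 -0.29 (0.231) and SLC43A3, a purine carrier, 0.23 (0.155). SLC66A1, SLC43A1, SLC43A2, SLC5A3 and SLC17A7 were chosen after their values were seen.

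Some further carriers of sugars, vitamins, ions and amino acids did not pass with all libraries. SLC2A5, the fructose carrier and the most abundant SLC2 member at 117 TPM, stood at 252, 300 and 262 CPM with bryostatin and 317, 334 and 313 with DMSO (log2 fold change -0.25, edgeR adjusted p = 0.138, groups separate). SLC5A6, the biotin and pantothenate carrier, had -0.26 ± 0.07 (0.0891), at 74.9, 79.4 and 75.9 CPM against 90.5, 96.8 and 88.9. SLC1A5 had 0.12 (0.556). The most abundant members of the other families with 3 or more members had log2 fold changes between -0.12 (SLC29A1) and 0.17 (SLC22A5), over SLC6A6, SLC9A7, SLC10A3, SLC12A2, SLC17A9, SLC22A5, SLC27A4, SLC29A1, SLC30A9, SLC35A4 and SLC37A4. The sodium-potassium-chloride carrier SLC12A2 rested on 1 library, with 37.3, 77.2 and 72.0 CPM with bryostatin and 60.6, 63.7 and 64.6 with DMSO. Its log2 fold change was -0.02 with all libraries and 0.24 without bryostatin 1 (adjusted p = 0.00319), and that of the taurine carrier SLC6A6 went from 0.16 to 0.29 (0.00266).

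Transcript length moved with the deviation of bryostatin 1. Members were grouped by the length implied by their counts and FPKM in the DMSO libraries. The length limits were set over all genes given a length, and members without one were left out. The median log2 deviation of bryostatin 1 from DMSO was 0.17 for the 45 shortest, 0.05 for the 69 of middle length and -0.20 for the 54 longest. Over all genes the values were 0.20, 0.02 and -0.20. Bryostatin 2 gave -0.02, 0.07 and 0.07 over members, and bryostatin 3 gave -0.09, -0.06 and -0.02. Long transcripts such as SLC7A1 and SLC12A2, of 6961 and 6445 implied bases, were low in bryostatin 1. Short ones such as SLC25A5 and SLC25A6, of 1042 and 1186 bases, were high in it. Not every member followed its implied length, and SLC25A3 and SLC25A4, of 5741 and 4152 implied bases, were also high in bryostatin 1. Implied lengths were not checked against annotated transcripts, so SLC25A3 and SLC25A4 may not be true exceptions. The part of length in these results was not tested.

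Leaving out bryostatin 1 raised the number of calls in the members and in the whole table. The edgeR test then called 47 of 180 members (26.1%), 23 higher and 24 lower. Over all 11790 genes tested without it, 27.0% were called, 13.8% higher and 13.2% lower, so the members again stood near the share of the table. The 8 members called with all libraries were among the 47, with the same direction. In 18 of the 47 (7 higher and 11 lower) the groups overlapped when all libraries were used. No matching share over all genes is given, so this count is a description only. The 23 higher held SLC41A2, SLC41A3, SLC43A1, SLC43A3, SLC66A2, SLC38A2 and the sugar phosphate carrier SLC37A1, and the 24 lower held the glucose carrier SLC2A1, SLC2A5, SLC3A2, SLC7A5, SLC7A11, SLC5A6 and the phosphate carrier SLC20A1. The log2 fold changes ran from 0.16 to 1.24 among the higher and from -0.89 to -0.11 among the lower. SLC41A2, SLC37A1, SLC2A1 and SLC20A1 were chosen after their values were seen. Leaving out any of the other 5 libraries lowered the number called, to 5 members without bryostatin 2, to 2 without bryostatin 3 and to 1 without DMSO 1, DMSO 2 or DMSO 3. That 1 was SLC15A4 each time.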

How the data were processed

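RNA from 6 SC1 libraries, 3 with bryostatin at 1 nM and 3 with DMSO, was enriched for polyadenylated transcripts and sequenced from both ends after random priming, per the labels' protocols. The authors deposited 1 table holding expected counts, estimated per gene, and beside them deposited FPKM (per length and depth) and TPM (scaled to 1000000 per library). The submitters' processing notes name HISAT2 2.2.1, RSEM 1.2.28, DESeq2 1.40.2 and GRCh38, without saying what each was used for. Neither annotation nor strand setting is given in the sources used here, which makes overlapping genes and close copies uncertain. Of the expected counts 6.31 to 7.22% per library were not whole numbers.

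Rounded expected counts entered a robust quasi-likelihood fit (edgeR 4.0.16, R 4.3.3) after filterByExpr and TMM scaling. Tests were 2-sided, with p-values adjusted by Benjamini-Hochberg over the 11613 genes kept and a threshold of 0.05. TMM factors were 0.952 for bryostatin 1 and 1.00 to 1.02 for the rest. The SE of a log2 fold change is its size divided by the root of F. CPM were computed from the rounded counts. Coordinates (1-based) and promoter windows came from RefSeq, GRCh38.p14, where all 180 members matched. The deposited FPKM served only to infer transcript length, together with the expected counts of the DMSO libraries. The fit was tested on simulated data.

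The members and lists were chosen with earlier results of these data known. Named genes were all SLC16, SLC7 and SLC3 members, the most abundant and most changed SLC25 members, every called member, the most abundant member of each family of 3 or more, and the 3 list genes with the smallest p per partner list. This named 64 genes, of which 13 passed. Of the 64, 1 is not reported here. The partner lists were lactate and pyruvate partners, amino acid response, amino acid sensing at the lysosome, carrier import and outer membrane pores, and transporters under other symbols. The 17 alternatives were RLE, upper-quartile or no factors, a filter by mean count (10) or none, DESeq2 1.42.0, limma-voom (limma 3.58.1) with and without library quality weights, log2(TPM + 0.1) and log2(TPM + 1), the replicate number as a block, and each library left out. Whether replicate numbers pair the libraries could not be settled.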

Additional observations from a re-analysis of the deposited data

How the results depend on the processing

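With 3 libraries per group few small differences can be called, and 4 members called here were under 10 CPM in every library. The 5 higher members became 9 with DESeq2, 20 with library quality weights, 3 with the block, and 1 to 23 when each library was left out. The 3 lower became 5, 24, 1 and 0 to 24. The SLC16 calls (2) became 1 with limma-voom, 1 with the block and 0 to 2 with a library left out. The 0 calls in SLC7 and SLC3 became 1 with library size only, 1 with DESeq2, 3 with quality weights and 0 to 3 with a library left out. The 0 higher SLC25 members became 2 with quality weights and 0 to 1 with a library left out. The 0 lower became 9 with quality weights, 2 with log2(TPM + 0.1), 2 with log2(TPM + 1) and 0 to 9 with a library left out. The members' median log2 fold change of -0.01 was -0.12 with log2(TPM + 0.1) and -0.09 with log2(TPM + 1), where that of all genes was -0.10 and -0.08, and it was -0.04 to 0.00 with a library left out. The causes were not tested.

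Whether the replicate numbers pair the libraries could not be settled. Correlations of deviations from the group means were -0.21, -0.17 and 0.03 between same-numbered libraries. Not every library correlated best with its own number. Bryostatin 2 and 3 gave nearly the same values against DMSO 1, 2 and 3 (0.16, -0.17 and 0.01, and 0.16, -0.19 and 0.03). With bryostatin 1 so far from its group, the check cannot exclude pairing. With the replicate block 3 members were higher and 1 lower, and over all genes 284 and 54.

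Of the named genes, 14 changed sign of their log2 fold change under some alternative, none of them called with all libraries. With quality weights SLC7A6 was 0.02, SLC7A7 -0.31, SLC25A5 -0.02, SLC25A3 -0.09, SLC9A7 0.03, SLC12A2 0.22, SLC17A9 0.02, SLC37A4 -0.11, SLC38A1 0.09 and SLC46A1 0.05. With library size only SLC7A6OS was -0.01, SLC16A7 -0.01, SLC25A3 -0.02 and SLC37A4 -0.03. With log2(TPM + 0.1) and log2(TPM + 1) SLC7A6OS was -0.06 in both, SLC7A7 -0.06 and -0.03, SLC16A7 -0.07 and -0.04, SLC25A3 -0.08 in both, SLC6A6 -0.03 and -0.02, and SLC37A4 -0.09 and -0.08. With upper-quartile factors SLC9A7 was 0.00. With 1 library left out at a time the log2 fold change ran from -0.25 to 0.05 for SLC7A6, -0.00 to 0.07 for SLC7A6OS, -0.35 to 0.49 for SLC7A7, -0.13 to 0.13 for SLC16A7, -0.04 to 0.17 for SLC25A5, -0.11 to 0.09 for SLC25A3, -0.18 to 0.01 for SLC25A39, -0.04 to 0.04 for SLC9A7, -0.20 to 0.24 for SLC12A2, -0.06 to 0.04 for SLC17A9, -0.11 to 0.10 for SLC37A4, -0.14 to 0.11 for SLC38A1 and -0.37 to 0.08 for SLC46A1. Leaving out bryostatin 1 turned the sign in 10 of these 13, all but SLC7A6OS, SLC16A7 and SLC25A39.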
